A study of Mus musculus with 73 samples.

Results

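Tbx3_E203, Pou5f1_E083, Nodal_E156 and Otx2_E114 are 4 genomic fragments of the mouse that were placed beside a second enhancer in a reporter plasmid, and their pairs with enhancers of other loci are described here. They were chosen because their pairs were on average more active than the sum of both enhancers, so the size of that excess is given as a description and without a test. The 4 fragments occurred in 8951 enhancer-enhancer (EE) combinations with a partner of another locus, of 69206 EE combinations and 110180 combinations of any kind. Tbx3_E203 was present in 2968 of them, Pou5f1_E083 in 2638, Nodal_E156 in 1478 and Otx2_E114 in 2157, and 290 combinations held a pair of these fragments. A ratio of observed to expected activity could be calculated for 8867 combinations. In 74 others the partner had no measurement beside a control. The remaining 10, all in the *Fgf5* library, had an activity of 0 in a replicate, so that their geometric mean was 0.

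The reporter libraries were measured in E14tg2a mouse embryonic stem cells, collected 24 hours after transfection. There were 8 libraries, each with 1 promoter, and each was transfected in 3 biological replicates on separate days. The promoters were those of *Lefty1*, *Tbx3*, *Sox2*, *Fgf5*, *Nanog*, *Klf2* and *Otx2*, which are developmental genes, and of *Ap1m1*, a housekeeping gene. Each plasmid carried 2 fragments in tandem, in position 1 and position 2 and each in plus or minus orientation, and a fragment was either an enhancer or a random or shuffled control. The plasmids were transient, so the fragments were measured outside their own chromosomal surroundings.

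An enhancer is a stretch of DNA that binds transcription factors and raises transcription from a promoter, and genes are commonly controlled by several enhancers. Signals of separate enhancers can add up, as when each contributes its own amount of transcription, or multiply, as when each scales what the other gives. In a reporter, additivity is judged by comparing the activity of a pair with the activity of each enhancer beside a control. Tbx3 and Otx2 are transcription factors of development, Pou5f1 (also known as Oct4) is a core factor of pluripotency, and Nodal is a secreted signal that patterns the early embryo.

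Each of the 4 fragments is listed with 450 bp in the mm10 coordinates of the study. By the paper's methods the primers lie within the ends of the listed fragments, so the amplified products are shorter. Tbx3_E203 lies at chr5:119656667-119657116, outside annotated genes and 13417 bp from *Tbx3*. Pou5f1_E083 lies at chr17:35505064-35505513, 518 bp from *Pou5f1*. Nodal_E156 lies at chr10:61405298-61405747, 12224 bp from *Nodal*. Otx2_E114 lies at chr14:48664703-48665152, inside the *Otx2* gene, which the RefSeq annotation of GRCm38 places from 48656781 to 48667644. Each was amplified from genomic DNA with a pair of primers, and these primers are shown because they mark the ends of the fragments that were tested.
Tbx3_E203 forward: ggatggctcaagaaggaagagttctatc
Tbx3_E203 reverse: aatgggtcactgggtcggtg
Nodal_E156 forward: agtcattcttattaatcacttactgggtc
Nodal_E156 reverse: gagtgaaattctcccaaatgacaacac
Otx2_E114 forward: tctccacagcgagcttagataataaac
Otx2_E114 reverse: aattgaccgttagatataaggctgtgc
Pou5f1_E083 reverse: cagagaagtgctggctctgc

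Pou5f1_E083 overlaps the neighbouring fragment Pou5f1_E082, which lies at chr17:35504714-35505163. The forward primer of Pou5f1_E083 and the reverse complement of the reverse primer of Pou5f1_E082 are shown because they share a stretch, given in capitals, at which these fragments overlap.
Pou5f1_E083 forward: attcaagGGTTGAGTACTTGTTTAGGG
Pou5f1_E082 reverse, reverse complement: GGTTGAGTACTTGTTTAGGGttagagc
The shared stretch is 20 bases long, and the primers place 34 bases in both amplified fragments, whereas the listed coordinates overlap by 100 bp.

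Otx2_E114 spans one of the annotated starts of *Otx2* transcription, at position 48665109 on the minus strand in RefSeq. The 43 bases of the listed fragment that lie before this start, at chr14:48665110-48665152, are shown on the minus strand with the letters TATAA in capitals.
Otx2_E114, before the start: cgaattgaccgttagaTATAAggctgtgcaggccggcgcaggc
The reverse primer of Otx2_E114 is found in this stretch, 2 bases from the listed end of the fragment. The first T of TATAA lies 27 bases before the start. TATAA was searched on both strands, and 5.69% of 32851 RefSeq promoter windows held it in the same stretch. The match is a description of these letters, and the other 3 fragments could not be searched in this way.

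Beside a control, the 4 fragments were enhancers of intermediate strength. The boost index, the log2 of the activity over the baseline of the promoter, averaged 1.37 over the promoters for Tbx3_E203, 0.99 for Pou5f1_E083, 0.93 for Nodal_E156 and 0.68 for Otx2_E114. The baseline is the median activity of control-control (CC) combinations, and activity is the ratio of barcode counts in cDNA to those in plasmid DNA. Ranked among the 49 enhancers with values in all 8 libraries, they stood at places 16, 25, 26 and 31 of the boost index. Activities beside a control (EC combinations) for the *Lefty1* promoter had medians of 0.333 ± 0.138 (SD over 77 EC combinations) for Tbx3_E203 in position 1 and 0.367 ± 0.133 (SD over 78 EC combinations) in position 2, against a baseline of 0.0866. For Otx2_E114 they were 0.154 ± 0.0614 (SD over 40 EC combinations) and 0.182 ± 0.0847 (SD over 71 EC combinations). The *Fgf5* promoter had few such measurements. There the boost index was 0.77 for Tbx3_E203 over 16 EC combinations, 0.15 for Pou5f1_E083 over 31, 0.00 for Nodal_E156 over 9 and -0.19 for Otx2_E114 over 18.

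The expected additive activity of a pair is the sum of both medians beside controls, taken in the same positions, minus the baseline. The supra-additivity used below is the log2 of observed over expected activity, with the median over the combinations of a fragment in each library and then the mean over the 8 libraries. For Tbx3_E203 this mean was 0.38 ± 0.05 (SD, n = 3), with 0.38, 0.33 and 0.43 in the 3 replicates. For Pou5f1_E083 it was 0.36 ± 0.01 (SD, n = 3), with 0.34, 0.36 and 0.35. For Nodal_E156 it was 0.37 ± 0.01 (SD, n = 3), with 0.35, 0.37 and 0.36. For Otx2_E114 it was 0.34 ± 0.02 (SD, n = 3), with 0.35, 0.30 and 0.31. The pairs were thus 1.30, 1.28, 1.29 and 1.27 times the activity expected from addition. Against the expectation of multiplication the same means were -0.15 for Tbx3_E203, -0.07 for Pou5f1_E083, -0.08 for Nodal_E156 and 0.03 for Otx2_E114. The *Fgf5* library raised these means, with medians of 0.66, 0.89, 1.01 and 0.85 in the same order. On the other promoters the medians were negative for the first 3 fragments. For Otx2_E114 they ran from -0.21 on *Sox2* to 0.04 on *Tbx3*.

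Among the 49 enhancers with all 8 libraries, the 4 fragments held places 1, 4, 3 and 5 of supra-additivity in the order given above. Otx2_E115 was at place 2 with 0.37, and Tbx3_E205 followed at place 6 with 0.28. Klf2_E046, measured in 7 libraries, had 0.46. The 4 fragments are therefore near the top of a continuous order and were not separated from Otx2_E115. Over the 49 enhancers, supra-additivity had a Pearson correlation of -0.48 and a Spearman correlation of -0.26 with the boost index, and both quantities rest on the same EC medians and baselines. The strongest enhancers lay at the other end of the order, with Pou5f1_E081 at -0.10 and Klf2_E058 at -0.17.

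The ratio differed between promoters. For the *Lefty1* promoter the medians were 0.61 for Tbx3_E203, 0.60 for Pou5f1_E083, 0.62 for Nodal_E156 and 0.51 for Otx2_E114, and the replicates of Tbx3_E203 gave 0.60, 0.58 and 0.65. For the *Tbx3* promoter they were 0.58, 0.50, 0.50 and 0.52 in the same order, and for the *Sox2* promoter 0.41, 0.44, 0.45 and 0.29. Pairs on *Lefty1* were thus at 1.42 to 1.53 times the expected activity, and those on *Sox2* at 1.22 to 1.37 times. For *Nanog* the medians fell between 0.12 and 0.17, for *Klf2* between 0.13 and 0.22, for *Otx2* between 0.04 and 0.16 and for *Ap1m1* between 0.04 and 0.15. All 32 medians were above 0. The lowest were those of Nodal_E156 with *Otx2* and *Ap1m1*, at 0.04 each, where its replicates ranged from 0.03 to 0.17 and from 0.02 to 0.10.

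The *Fgf5* library gave the highest median of each fragment, and for all but Pou5f1_E083 also the widest spread between replicates. They were 0.80 ± 0.48 (SD, n = 3) for Tbx3_E203, 0.90 ± 0.02 for Pou5f1_E083, 1.00 ± 0.12 for Nodal_E156 and 0.76 ± 0.18 for Otx2_E114. The replicates of Tbx3_E203 were 0.92, 0.32 and 1.26, so that 1 of them lay below its median for *Lefty1*. The baseline of this library rests on 23 CC combinations above 0, and its log2 had an SD of 0.46 over the replicates, against 0.03 to 0.30 in the other libraries. The expected activity that the authors deposited implies a baseline of 0.142 for *Fgf5*, where 0.213 was used here, and EC medians that include combinations at 0. Against that expectation the *Fgf5* medians were 0.92 for Tbx3_E203, 0.88 for Pou5f1_E083, 1.17 for Nodal_E156 and 1.03 for Otx2_E114, over 240, 242, 82 and 148 combinations for which it is given. Without the *Fgf5* library the means of the fragments were 0.32, 0.28, 0.28 and 0.28.

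The other enhancers also had higher values on *Lefty1*, *Tbx3*, *Sox2* and *Fgf5* than on the rest of the promoters. Their median supra-additivity was 0.26 for *Lefty1*, 0.26 for *Tbx3*, 0.20 for *Sox2* and 0.65 for *Fgf5*, and it lay between -0.06 and -0.04 for the other 4 promoters. For *Nanog*, *Klf2*, *Otx2* and *Ap1m1* the 4 fragments were thus above 0 where the median of other enhancers was below it. The fragments were chosen on this ratio, so nothing is read from the comparison. On these promoters the highest of the other enhancers had 0.25, 0.23, 0.17 and 0.18, above the medians of the 4 fragments. The ranks of the fragments within a library ranged from 1 for Nodal_E156 with *Lefty1*, of 58 enhancers, to 18 for Otx2_E114 with *Sox2*, of 56 enhancers, and with *Fgf5*, of 51.

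A combination was called supra-additive when it exceeded the expected activity by more than 1 SD, propagated from the spread of the EC and CC combinations. This was the case for 1136 of 2927 combinations of Tbx3_E203 (38.8%), 875 of 2595 of Pou5f1_E083 (33.7%), 544 of 1451 of Nodal_E156 (37.5%) and 647 of 2116 of Otx2_E114 (30.6%). Of all EE combinations, 18.1% passed this limit. The 4 fragments were chosen on this measure, so nothing is read from the comparison. Few combinations were more than 1 SD below expectation, from 0.539% for Pou5f1_E083 to 1.45% for Nodal_E156, where 8% of all EE combinations were. Combinations above expectation in each of the 3 replicates made up 68.0% for Tbx3_E203, 64.0% for Pou5f1_E083, 61.7% for Nodal_E156 and 62.0% for Otx2_E114, against 42.3% of all EE combinations.

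The share depended on the promoter. It ranged from 66.6% of the pairs of Tbx3_E203 on *Lefty1* to 8.81% on *Ap1m1*, and from 64.1% to 4.29% for Pou5f1_E083. For Nodal_E156 it ranged from 71.0% on *Fgf5* to 9.22% on *Ap1m1*, and for Otx2_E114 from 53.6% on *Tbx3* to 11.03% on *Ap1m1*. The background of all EE combinations ran the same way, at 30.7% on *Lefty1*, 34.9% on *Tbx3*, 28.7% on *Sox2* and 39.2% on *Fgf5*, and at 7.01% on *Nanog*, 6.21% on *Klf2*, 5.33% on *Otx2* and 2.62% on *Ap1m1*. At the limit itself, Tbx3_E203 in plus orientation followed by Otx2_E115 in minus orientation on *Otx2* was 1.00 SD above expectation with a ratio of 0.32 and lay just inside. Pou5f1_E083 in plus orientation followed by Fgf5_E038 in minus orientation on *Tbx3* had a ratio of 0.42 and lay just outside, at 0.999957 SD.

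The excess was found with nearly every partner. Of partners measured with at least 6 promoters, 49 of 51 had a mean ratio above 0 with Tbx3_E203, 47 of 48 with Pou5f1_E083, 34 of 34 with Nodal_E156 and 50 of 50 with Otx2_E114. With 37, 27, 10 and 33 of these partners the ratio was above 0 in each library measured. Most of these partners also had a mean ratio above 0 with enhancers other than the chosen fragments. For the counts over each library, no matching share of other enhancers is given. The fragments were chosen on these ratios, so the counts are a description and are not read as particular to them. The median over partners was 0.38 for Tbx3_E203, 0.38 for Pou5f1_E083, 0.40 for Nodal_E156 and 0.36 for Otx2_E114.

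Tbx3_E203 had its highest mean ratios with Otx2_E108, Fgf5_E040 and Nodal_E156, at 0.68 ± 0.03, 0.64 ± 0.05 and 0.59 ± 0.11 (SD, n = 3). On *Lefty1*, Tbx3_E203 in position 1 and plus orientation with Otx2_E108 in plus orientation had activities of 1.73, 1.67 and 1.37 in the replicates, where 0.591 ± 0.246 (propagated SD) was expected. The expected value is made of 0.333 for Tbx3_E203, 0.346 for Otx2_E108 and the baseline of 0.0866. The 8 arrangements of this pair on *Lefty1* all exceeded expectation, with ratios from 0.43 to 1.42. The lowest partners were Lefty1_E087 at 0.03 ± 0.02, Otx2_E110 at -0.0052 ± 0.30 and Pou5f1_E084 at -0.02 ± 0.12 (SD, n = 3). With Pou5f1_E084 on *Lefty1* the arrangements ranged from a ratio of -0.65, with activities of 0.259, 0.221 and 0.251 against an expected 0.380, to a ratio of 1.31, with activities of 1.18, 1.31 and 1.44 against an expected 0.529. This pair thus lay on both sides of expectation, depending on position and orientation.

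Pou5f1_E083 was highest with Nodal_E156 at 0.65 ± 0.07, Fgf5_E038 at 0.62 ± 0.22 and Otx2_E108 at 0.58 ± 0.07 (SD, n = 3). The value of Fgf5_E038 reached 3.60 in its highest library and was -0.14 in its lowest. The lowest partners of Pou5f1_E083 were Nodal_E162 at 0.12 ± 0.05, Otx2_E110 at 0.10 ± 0.08 and Lefty1_E087 at -0.07 ± 0.06 (SD, n = 3). On *Lefty1*, Pou5f1_E083 in position 1 and plus orientation with Lefty1_E087 in plus orientation had activities of 0.271, 0.186 and 0.167, against an expected 0.208 ± 0.111. Lefty1_E087 was itself a weak enhancer with a mean boost index of 0.21, and Otx2_E110 had -0.05.

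Nodal_E156 was highest with Pou5f1_E083 at 0.65 ± 0.07, Tbx3_E203 at 0.59 ± 0.11 and Otx2_E115 at 0.56 ± 0.02 (SD, n = 3). Its lowest partners were the 3 enhancers with the highest boost indices among the 49. They were Pou5f1_E081 at 0.08 ± 0.02, Klf2_E058 at 0.05 ± 0.06 and Sox2_E180 at 0.02 ± 0.10 (SD, n = 3), with boost indices of 3.28, 3.04 and 2.81. On *Lefty1*, Nodal_E156 in position 1 and minus orientation with Sox2_E180 in plus orientation had activities of 2.80, 3.23 and 2.77, against an expected 2.58 ± 0.562. Sox2_E180 alone accounted for 2.37 of this. With partners other than the 4 fragments, these strong enhancers were below additivity, at -0.12, -0.21 and -0.13.

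Otx2_E114 was highest with Klf2_E057 at 0.66 ± 0.10, Nanog_E065 at 0.56 ± 0.16 and Tbx3_E203 at 0.55 ± 0.12 (SD, n = 3). On *Lefty1*, Otx2_E114 in position 2 and plus orientation with Klf2_E057 in plus orientation had activities of 1.81, 1.65 and 1.41, against an expected 0.585 ± 0.317. The lowest partners were Nodal_E157 at 0.12 ± 0.07, Pou5f1_E084 at 0.06 ± 0.10 and Pou5f1_E082 at 0.02 ± 0.11 (SD, n = 3). Lefty1_E087, Otx2_E110 and Pou5f1_E084 were each among the 3 lowest partners of 2 of the fragments, whereas Nodal_E156, Otx2_E108 and Tbx3_E203 were each among the 3 highest of 2.

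The 4 fragments were also paired with each other. The mean ratio was 0.65 ± 0.07 (SD, n = 3) for Pou5f1_E083 with Nodal_E156, 0.59 ± 0.11 for Tbx3_E203 with Nodal_E156, 0.55 ± 0.12 for Tbx3_E203 with Otx2_E114, 0.54 ± 0.07 for Nodal_E156 with Otx2_E114, 0.52 ± 0.08 for Tbx3_E203 with Pou5f1_E083 and 0.45 ± 0.03 for Pou5f1_E083 with Otx2_E114. These pairs rest on 33 to 64 combinations each. Each mean was above the means of its own fragments over all partners, and neighbours in this order differed by less than the larger of their SDs over replicates. The rule chose the fragments on these combinations among others, so this is a description.

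For Pou5f1_E083 with Nodal_E156 the median ratio was 1.05 on *Lefty1* (6 combinations), 1.00 on *Sox2* (3 combinations), 0.63 on *Tbx3*, 0.38 on *Nanog*, 0.20 on *Otx2*, 0.15 on *Klf2* and 0.12 on *Ap1m1*. On *Fgf5* it was 1.65, with 6 of 6 combinations supra-additive. On *Lefty1* the median activity of this pair was 0.751, where the median expected activity was 0.286. For Tbx3_E203 with Pou5f1_E083, measured in 8 combinations on each promoter, 8 of 8 were supra-additive on *Tbx3* and *Sox2*, 7 on *Lefty1*, 5 on *Fgf5*, 3 on *Nanog* and *Otx2*, 1 on *Klf2* and 0 on *Ap1m1*. In each pair of the fragments the ratios on *Lefty1*, *Tbx3*, *Sox2* and *Fgf5* were above those on the other 4 promoters, while the order within these sets varied between pairs.

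The ratio was then compared within each fragment, between its positions, its orientations and its strong and weak partners. The fragments were chosen on the ratio by promoter, partner and position, so the differences between positions and partners are given as a description and without a test. Orientation was not part of the choice, although its differences come from the same combinations. They were tested over the 8 libraries, against 0 and against the median difference of other enhancers, with two-sided exact sign-flip permutation tests and Benjamini-Hochberg adjustment over all 24 comparisons calculated. The smallest p that 8 libraries allow is 0.0078125, and 7 of the 8 orientation tests had an adjusted p below 0.05. The expected activity pools both orientations, so an orientation difference of the fragment beside a control also enters these tests. With EC medians of the same position and orientation, 3 of the 8 had an adjusted p below 0.05. The libraries share the fragments, their primers and, by the paper's methods, the pool of ligated pairs. Each was cloned with its own promoter and transfected separately. The libraries are thus not fully independent units, which the tests do not take into account.

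Against an expectation that pools both orientations, the ratio differed with the orientation of the fragment itself. Tbx3_E203 had a mean ratio of 0.52 in plus and 0.27 in minus orientation, Nodal_E156 0.16 in plus and 0.52 in minus, and Pou5f1_E083 0.34 in plus and 0.37 in minus. On *Lefty1*, Tbx3_E203 had median ratios of 0.81 over 196 plus and 0.44 over 195 minus combinations, and the difference was 0.37, 0.38 and 0.36 in the replicates. Nodal_E156 on *Lefty1* had 0.40 over 78 plus and 0.77 over 136 minus combinations, with differences of -0.41, -0.47 and -0.39. The orientation of the partner moved these values little, since Tbx3_E203 in plus orientation had 0.50 with plus and 0.53 with minus partners and Nodal_E156 in minus orientation had 0.52 and 0.53.

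The difference of plus minus minus was 0.25 ± 0.06 (SD, 8 libraries) for Tbx3_E203, with 8 of 8 libraries above 0, -0.37 ± 0.04 for Nodal_E156, with 8 of 8 below 0, and 0.31 ± 0.10 for Otx2_E114, with 8 of 8 above 0. Each had an adjusted p of 0.01875 (exact sign-flip permutation test), both against 0 and against other enhancers, whose median difference averaged 0.01. For Pou5f1_E083 the difference was -0.03 ± 0.03, with an adjusted p of 0.0721 against 0 and of 0.03125 against other enhancers in the exact permutation test. Without replicate 1 the latter was -0.02 with an adjusted p of 0.221 (exact permutation test), and it was also lost without any 1 library other than *Fgf5*. The test against other enhancers adds little to that against 0 and cannot show that a difference is particular to a fragment. The other enhancers had differences of either sign, so their median lay near 0. Of 45 of them, 29 had the same sign in all 8 libraries, their means ranged from -0.46 to 0.45, and 13, 4 and 6 were at least as far from 0 as Tbx3_E203, Nodal_E156 and Otx2_E114.

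The same fragments differed between orientations when they stood beside a control. The boost index in plus minus that in minus orientation averaged 0.44 for Tbx3_E203, -0.44 for Nodal_E156, 0.37 for Otx2_E114 and -0.03 for Pou5f1_E083. These boost indices pool both positions. Nearly all plus EC combinations of Nodal_E156 and Otx2_E114 were in position 2, so their values mix position with orientation. The expected activity above pools both orientations, so the differences beside a control move with the ratios. With EC medians of the same position and orientation as in the pair, an alternative added with the values already in view, the difference for Tbx3_E203 was -0.02 ± 0.08 (SD, 8 libraries; adjusted p = 0.491, exact permutation test). For Nodal_E156 it was -0.21 and for Otx2_E114 0.17, each with an adjusted p of 0.0375 in the exact permutation test against 0. Against other enhancers the adjusted p of Otx2_E114 was then 0.075. The mean supra-additivity of the 4 fragments, which averages over orientations, was 0.35, 0.36, 0.39 and 0.36 with these medians.

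Position and orientation were not evenly combined in all fragments. Tbx3_E203 and Pou5f1_E083 had 687 to 782 and 591 to 720 pairs in each combination of position and orientation. Nodal_E156 in position 1 had 110 plus and 456 minus pairs, and only 2 plus EC combinations against 119 minus ones. Otx2_E114 in position 1 had 103 plus and 766 minus pairs, and 1 plus EC combination against 279 minus ones. In position 2, where both orientations were common, the difference of plus minus minus was 0.48 ± 0.13 (SD, 8 libraries) for Otx2_E114, -0.44 ± 0.10 for Nodal_E156 and 0.32 ± 0.11 for Tbx3_E203. In position 1 it was -0.09 ± 0.07 (SD, 7 libraries) for Otx2_E114, -0.25 ± 0.16 for Nodal_E156 and 0.18 ± 0.10 for Tbx3_E203. The sign of Otx2_E114 was thus opposite in the 2 positions, a difference that was not tested. In position 2 with EC medians of the same orientation, Otx2_E114 had 0.22 ± 0.23 (SD, 8 libraries) and Nodal_E156 -0.20 ± 0.14, each with an adjusted p of 0.03125 over 8 tests (exact permutation test), and Tbx3_E203 had -0.02 ± 0.20 (adjusted p = 1, exact permutation test).

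Pairs of Pou5f1_E083 had lower median ratios when it stood in position 1, with 0.48 against 0.71 on *Lefty1*, 0.38 against 0.68 on *Tbx3* and 0.42 against 0.49 on *Sox2*. The replicates of the difference were -0.24, -0.27 and -0.29 on *Lefty1* and -0.26, -0.29 and -0.32 on *Tbx3*. Over the libraries the difference of position 1 minus position 2 was -0.13 ± 0.10 (SD, 8 libraries), with 7 of 8 below 0. On *Fgf5* it was -0.20 for the averaged activities but between 0.15 and 0.21 in the single replicates. Without replicate 1, 2 or 3 the mean was -0.10, -0.13 and -0.09, and it was -0.09 ± 0.14 (SD, 8 libraries) when each difference was calculated within a replicate.

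For the other 3 fragments the position difference was -0.07 ± 0.09 (SD, 8 libraries) for Tbx3_E203, -0.04 ± 0.06 for Otx2_E114 and 0.07 ± 0.30 for Nodal_E156. The value of Nodal_E156 rests on the *Fgf5* library, where the ratio was 1.72 over 53 pairs in position 1, with 3 EC combinations behind the expectation, and 0.92 over 89 pairs in position 2. Without this library it was -0.03. With EC medians pooled over both positions the 3 differences were -0.21 for Tbx3_E203, -0.11 for Otx2_E114 and 0.26 for Nodal_E156. Alone, Pou5f1_E083 was more active in position 2 on *Ap1m1*, at 1.18 ± 0.210 (SD over 77 EC combinations) against 0.849 ± 0.1997 (SD over 74 EC combinations) in position 1. Nodal_E156 was the reverse on *Lefty1*, at 0.182 ± 0.106 (SD over 45 EC combinations) in position 2 and 0.304 ± 0.104 (SD over 18 EC combinations) in position 1.

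Pairs with strong and weak partners were compared next. For each combination the EC activity of the partner was taken in the position it did not hold. These values were then averaged for each partner over its combinations in both positions, and partners were ranked by this average. The ranking of a partner measured in both positions thus used EC medians that also enter the expected activity, so the split and the ratio are not independent. With Tbx3_E203 on *Lefty1*, 26 weaker partners gave a median ratio of 0.49 and 25 stronger partners 0.70. With Otx2_E114 on *Lefty1* these values were 0.41 and 0.60, and with Pou5f1_E083 on *Tbx3* 0.38 and 0.64. With Nodal_E156 they ran the other way on *Lefty1*, at 0.69 with weaker and 0.57 with stronger partners.

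In other enhancers, the ratio with strong partners minus that with weak partners had a median that averaged -0.11 over the libraries. Against this, the difference was higher by 0.19 ± 0.09 (SD, 8 libraries) in Tbx3_E203, by 0.15 ± 0.09 in Pou5f1_E083 and by 0.14 ± 0.08 in Otx2_E114. Each was higher in 8 of 8 libraries, and Nodal_E156 differed from other enhancers by -0.04 ± 0.09. With EC medians of the same position and orientation the values were 0.17 for Tbx3_E203, 0.13 for Pou5f1_E083 and 0.11 for Otx2_E114. The other enhancers were not chosen for a high ratio, so nothing is read from this comparison.

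The difference between strong and weak partners was 0.07 ± 0.15 (SD, 8 libraries) for Tbx3_E203, 0.04 ± 0.18 for Pou5f1_E083, 0.03 ± 0.20 for Otx2_E114 and -0.15 ± 0.26 for Nodal_E156. For the first 3 fragments, 7 of 8 libraries were above 0 and *Fgf5* was below, at -0.26, -0.36 and -0.45. Without *Fgf5* these differences were 0.12, 0.09 and 0.10 over 7 libraries. A ratio that does not fall with strong partners is a larger excess in activity. Tbx3_E203 on *Lefty1* exceeded expectation by a median of 0.171 with weaker and 0.634 with stronger partners, and Nodal_E156 by 0.174 and 0.394.

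Against multiplication the medians of pairs with strong partners fell short on each promoter other than *Fgf5*. On *Fgf5* they exceeded it, at 0.16 for Tbx3_E203, 0.67 for Pou5f1_E083, 0.60 for Nodal_E156 and 0.69 for Otx2_E114. On *Lefty1* the log2 of observed over the multiplicative expectation was -0.78 for Tbx3_E203 with stronger partners and -0.06 with weaker ones. For Nodal_E156 the values were -0.52 and 0.21, for Pou5f1_E083 -0.37 and 0.07, and for Otx2_E114 -0.18 and 0.06. On *Ap1m1* they were -0.12 and 0.03 for Tbx3_E203. The ratio of a pair to its partner beside a control also fell, from 1.95 with weaker to 1.22 with stronger partners of Tbx3_E203 on *Lefty1*, in log2 units. These values share the EC medians that the ranking of partners is related to and are given without a test.

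Neighbouring fragments of the same loci had other values. Pou5f1_E082, which overlaps Pou5f1_E083 at the stretch shown above and had a similar mean boost index of 0.97, had a mean supra-additivity of 0.08 over the 7 libraries other than *Fgf5*, in which Pou5f1_E083 had 0.28. It was 0.12 on *Lefty1*, where Pou5f1_E083 had 0.60, and 0.43 on *Sox2*, where Pou5f1_E083 had 0.44. Pou5f1_E081, 727 bp from Pou5f1_E083, had -0.10. Nodal_E157, 168 bp from Nodal_E156, had 0.18 with a mean boost index of 0.08, and Nodal_E158 had 0.24. The difference between orientations was -0.21 for Nodal_E157 and 0.17 for Nodal_E158, against -0.37 for Nodal_E156.

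Otx2_E115, 1158 bp from Otx2_E114 and inside the same gene, had 0.37 with a boost index of 0.76 and had medians of 0.52 on *Lefty1*, 0.52 on *Tbx3* and 0.32 on *Sox2*, close to those of Otx2_E114. Its difference between orientations was 0.02, where that of Otx2_E114 was 0.31. Tbx3_E205, 1217 bp from Tbx3_E203, had 0.28 with a boost index of 0.42, and the fragment between them, Tbx3_E204, had no measured combination. The fragment of the *Otx2* promoter lies 1457 bp from Otx2_E114. These comparisons are between fragments measured in the same libraries and were not tested.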

How the data were processed

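There were 73 samples, and 48 of these were cDNA from 8 libraries, 3 biological replicates and 2 sequencing runs. The authors normalised barcode counts to sample totals, took a cDNA over plasmid DNA ratio for every barcode and averaged at least 5 barcodes with at least 8 plasmid counts. Their deposited table holds this ratio per combination and replicate, beside an expected additive activity from the authors. It gives no barcode numbers, so the depth behind each value is unknown and no counting error is given. The submitters' notes name Bowtie2 and mm10.

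Activities were averaged as geometric means over replicates with Python 3.11.15, numpy 2.4.6, pandas 2.3.3 and scipy 1.17.1. A combination at 0 in any replicate thus has a mean of 0 and was left out of the EC and CC medians. The baseline is the median of CC combinations above 0, and for *Fgf5* it differs from the one that the deposited expected activity implies. Differences needed at least 5 combinations on each side in a library. The fragments, partners and tests were chosen with earlier results of these data known. Named are the 4 fragments with every promoter, their 3 highest and 3 lowest partners over at least 6 promoters, pairs of the fragments with each other, neighbouring fragments and combinations at the limit of 1 SD. The calculations were tested on simulated data. Motif counts over whole fragments were planned and not run, since no genome was used here. Fragment coordinates and primers are those of the study, and promoter windows are from RefSeq (GRCm38.p6). Alternatives are given in the closing section.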

Additional observations from a re-analysis of the deposited data

How the results depend on the processing

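The values rest on medians beside controls that hold few combinations for some fragments and promoters, on an SD propagated from these medians, and on 3 replicates. The depth behind an activity is unknown. With 7 libraries the smallest p is 0.015625, so tests without a library can lose a call by their size alone. Orientation differences are called by the adjusted p of the exact permutation test, and differences between positions and partners are values without a test.

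The mean supra-additivity of the fragments (in the order Tbx3_E203, Pou5f1_E083, Nodal_E156, Otx2_E114) kept its sign under each alternative other than the multiplicative expectation. With that expectation and the *Fgf5* library included, the means were -0.15, -0.069, -0.076 and 0.029. With a baseline of all CC combinations, 0 included, the *Fgf5* baseline is 0. The mean supra-additivity over 7 libraries was then 0.31, 0.28, 0.28 and 0.28. Without the *Fgf5* library it was 0.32, 0.28, 0.28 and 0.28. With partners of the same locus it was 0.46, 0.23 and 0.23 for the first 3. For Pou5f1_E083, Nodal_E156 and Otx2_E114 it was 0.37, 0.40 and 0.39 with the expected activity deposited by the authors and 0.38, 0.45 and 0.37 with shuffled controls alone. EC medians pooled over both positions gave 0.33 for Pou5f1_E083 and 0.43 for Nodal_E156. For Nodal_E156, EC medians of the same position and orientation gave 0.39, and a minimum of 10 EC combinations gave 0.27 over 7 libraries. Without 1 replicate it ranged from 0.33 to 0.38 for Pou5f1_E083 and from 0.34 to 0.40 for Nodal_E156.

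With a limit of 2 SD, 421 of 2927, 262 of 2595, 198 of 1451 and 185 of 2116 combinations were supra-additive. The share of all EE combinations at this limit is not given, so nothing is read from these counts. In each replicate, 2001 of 2943, 1675 of 2618, 902 of 1462 and 1319 of 2129 combinations were above expectation, against 42.3% of all EE combinations.

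Of the 8 orientation tests, 7 were called as reported, 6, 7 and 7 without replicate 1, 2 and 3, 7 without the *Fgf5* library, 6 without any other library and 3 with EC medians of the same position and orientation. All 8 were called with means over combinations, with EC medians pooled over positions and with the log2 activity over the baseline in place of the ratio. Ranges in this paragraph are over the calculations without 1 replicate or 1 library other than *Fgf5*. The position difference ranged from -0.15 to -0.086 for Pou5f1_E083 (-0.16 to -0.0999 against other enhancers), from -0.039 to 0.13 for Nodal_E156 (-0.052 to 0.12) and from -0.070 to 0.0034 for Otx2_E114 (-0.087 to -0.0037). Without replicate 3 that of Nodal_E156 changed sign, and without replicate 2 that of Otx2_E114 against 0. The orientation difference of Pou5f1_E083 against other enhancers ranged from -0.043 to -0.023. That of partner strength ranged from 0.047 to 0.10 for Tbx3_E203 and, against other enhancers, from 0.13 to 0.17 for Pou5f1_E083 and from 0.12 to 0.16 for Otx2_E114.

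Without the *Fgf5* library the position difference was -0.095 for Tbx3_E203 (-0.10 against other enhancers) and -0.034 for Nodal_E156 (-0.042). Partner strength was 0.12 for Tbx3_E203, 0.094 for Pou5f1_E083 and 0.10 for Otx2_E114, and the orientation difference of Pou5f1_E083 against other enhancers was -0.045. With EC medians pooled over positions, the position difference was -0.21 for Tbx3_E203 (-0.24 against other enhancers), 0.26 for Nodal_E156 (0.23) and -0.11 for Otx2_E114 (-0.15), and the orientation difference of Pou5f1_E083 was called at -0.043. With the log2 activity over the baseline, the position difference was -0.20 (-0.24), 0.21 (0.17) and -0.18 (-0.22) for the same fragments, and the orientation difference of Pou5f1_E083 was called at -0.049. Partner strength was then 1.03 for Tbx3_E203 (-0.031 against other enhancers), 1.12 for Pou5f1_E083 (0.055), 1.13 for Nodal_E156 (0.068) and 1.18 for Otx2_E114, since this measure holds the activity of the partner itself.

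With EC medians of the same position and orientation, the orientation difference was -0.022 for Tbx3_E203 (-0.043 against other enhancers). Against other enhancers it was -0.069 for Pou5f1_E083 and 0.15 for Otx2_E114, neither called. There the position difference of Pou5f1_E083 was -0.11, and partner strength was 0.13 for Pou5f1_E083 and 0.11 for Otx2_E114. In position 1 alone, the orientation difference was -0.095 for Otx2_E114 (-0.099 against other enhancers) and -0.0068 for Pou5f1_E083 against other enhancers. In position 2 alone it was called at -0.063 for Pou5f1_E083. With the medians of the same orientation as well, it was -0.016 for Tbx3_E203 (-8.66e-06 against other enhancers) and -0.062 for Pou5f1_E083 against other enhancers. With means over combinations the orientation difference of Pou5f1_E083 was -0.036 and called.

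Replicates of different libraries with the same number had a mean correlation of 0.18 in their deviations from the mean of each combination, with 65 of 84 pairs over 0.1. Those with different numbers had -0.09, with 3 of 168 over 0.1, so the numbers carry a shared component. Pairing was not assumed, since not every pair was over 0.1 and the labels tie no number to a shared batch. Fits with the replicate block, in which each difference was calculated within a replicate and then averaged, called 8 of 8 orientation tests. The position difference of Pou5f1_E083 was then -0.094 against 0 and -0.10 against other enhancers, and its orientation difference against 0 was -0.040 with an adjusted p of 0.0341. The block changed no other orientation call. The cause of these changes was not tested.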
